A study of Macaca mulatta with 15 samples.

Results

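The cytosolic ribosomal protein genes are those that encode the proteins of the 2 subunits of the ribosome outside mitochondria. They were taken from the count table of blood T cells of rhesus macaques (Macaca mulatta) by gene symbol: RPL or RPS followed by a number with an optional A, X or L, or RPSA, RPLP0, RPLP1 or RPLP2, without RPS4Y and RPS6K genes. Of 34884 rows 66 matched, and the 64 with a mean of at least 1 CPM (counts scaled, for this threshold, to the library's total) over the 15 libraries were kept. All 64 passed the filter on low counts and were among the 14814 genes tested. They comprised 37 proteins of the large subunit and 27 of the small subunit. The lowest members inside the limit were RPS21 at 32.2, RPS27A at 33.9 and RPS24 at 50.3 CPM on average on this scale, and the rows outside it were RPL3L at 0 and RPL10L at 0.000929 CPM. RPLP0, RPS6, RPL11 and RPL36A had no row under these symbols and were not analysed here. In all CPM values below, the library's total was first multiplied by its TMM factor, a scaling of edgeR that ran from 0.937 to 1.08, while shares are of the total itself. A further 10 rows had a ribosomal protein name only through a gene-name table, and they are described after the members.

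Ribosomal proteins assemble with ribosomal RNA in the nucleolus into a small subunit, which reads the messenger RNA, and a large subunit, which joins the amino acids. Their messenger RNAs belong to the TOP class, which begins with a run of pyrimidines and is translated under the control of the kinase complex mTORC1 and the binding protein LARP1. Resting T cells keep a store of these messages, and activation of a T cell is followed by an increase in ribosome production.

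The libraries came from the peripheral blood of 2 healthy animals, RhDBCb and RhM22, and from 4 T cell subsets: CD4 naive, CD4 memory, CD8 naive and CD8 memory. Each animal was sampled before any treatment and again after 2-hydroxypropyl-beta-cyclodextrin, a sugar ring that binds cholesterol. It was given under the skin each day as 1 ml/kg of Kleptose HBP at 15% (w/w), and the course lasted no longer than 120 days. Each subset and time had 1 library per animal, except that CD8 naive cells after treatment were represented by RhM22 alone. That gave 8 libraries before and 7 after. With 1 library per animal in each group, the p-values below measure the spread between these libraries, and the age of the animals and the way the subsets were separated are not given in the labels. Polyadenylated RNA was amplified with SMART-Seq v4, and the values describe the share of a gene in the RNA of a sample. In such bulk samples fewer cells of a type and less RNA per cell cannot be told apart.

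Total counts ranged from 44414963 to 71787211 per library and genes detected from 13525 to 15445. The co-receptor CD4 was measured at 207 to 549 CPM where the label says CD4 and at no more than 1.68 CPM elsewhere, and the co-receptor chain CD8A at 665 to 861 CPM where the label says CD8 and at no more than 3.93 CPM elsewhere. Among the naive markers, LEF1 (638 to 1021 CPM in naive and 72.1 to 517 CPM in memory libraries) did not overlap, while CCR7 overlapped between CD4 naive (5977 to 17549.7 CPM) and CD4 memory (6017 to 9553 CPM) and TCF7 between CD8 naive (62.2 to 121 CPM) and CD8 memory libraries (49.4 to 74.9 CPM). The 3 memory markers measured, summed, did not overlap, at 288 to 880.1 CPM in naive and 1563 to 6161 CPM in memory libraries. The 6161 CPM belonged to the before CD8 memory library of RhDBCb, and the other CD8 memory libraries had 1563 to 1649 CPM. The 4 before libraries of RhDBCb stood apart in the summed level of the early response genes FOS, JUN and DUSP1, which was 9354 to 26988 CPM in them and 3360 to 7110 CPM in the other 11 libraries. Their 13525 to 14750 genes detected overlapped with the 14410 to 15445 of the others. Comparisons between subsets and between the animals are given below also without them. The treatment effect within RhDBCb has no other before libraries, so it and its difference from RhM22 cannot be given in that way.

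By count the family was led by RPL3 at a mean of 1967 CPM, RPS2 at 1603 CPM and RPL10 at 1245 CPM, and the median member had 284 CPM. RPL3 lies near the site where peptide bonds form, and RPL10 is among the last proteins to join the large subunit. Per length, the authors' FPKM values put RPS2 at 623, RPL8 at 492, RPL10 at 380.4, RPL7 at 317 and RPL13 at 309 highest. Among the lowest were RPS27A at 0.383, RPS29 at 2.48, RPS24 at 2.53 and RPL28 at 6.56 FPKM. The length behind these FPKM values was derived only up to a constant. It was scaled so that the median gene compared matched its RefSeq gene span with introns. On that scale it was within 1.1-fold of the span for 31 of the 64 members and for 62.7% of the genes compared. For 11 members, among them the 4 low ones named above, it was over 3 times that span. For others it was shorter, such as RPL27A at 0.0397 and RPL22 at 0.0643 times the span. RPL10, named among the highest, was at 0.445 times. The RefSeq spans are of the assembly T2T-MMU8v2.0, not the authors' build. The order of FPKM between members therefore contains the length that was used, and the comparisons below are of 1 gene between libraries.

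The members moved largely as a block across the 15 libraries. The correlation of a member's log2 CPM with the median of the other members was over 0.8 for 49 of the 64, as a description over libraries that share 2 animals and 4 subsets. It was highest for RPS14 (0.97), RPL22 (0.97) and RPS23 (0.96). RPS14 and RPS23 are core proteins of the small subunit, and RPL22 is an RNA-binding protein of the large subunit that is needed for the development of alpha-beta T cells. At the other end stood RPS27L at -0.14, RPS26 at 0.05 and RPL7 at 0.42. RPS27L, a close relative of RPS27 known as a target of p53, was the only member whose correlation was below 0. The SD of log2 CPM over the libraries had a median of 0.36 over the members and of 0.43 over all genes tested. It was largest for RPL30 (0.63), RPS27A (0.61), RPL5 (0.58), RPS25 (0.56) and RPL9 (0.56), and smallest for RPS9 (0.21), RPL17 (0.23) and RPL4 (0.24).

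**Figure D1:**
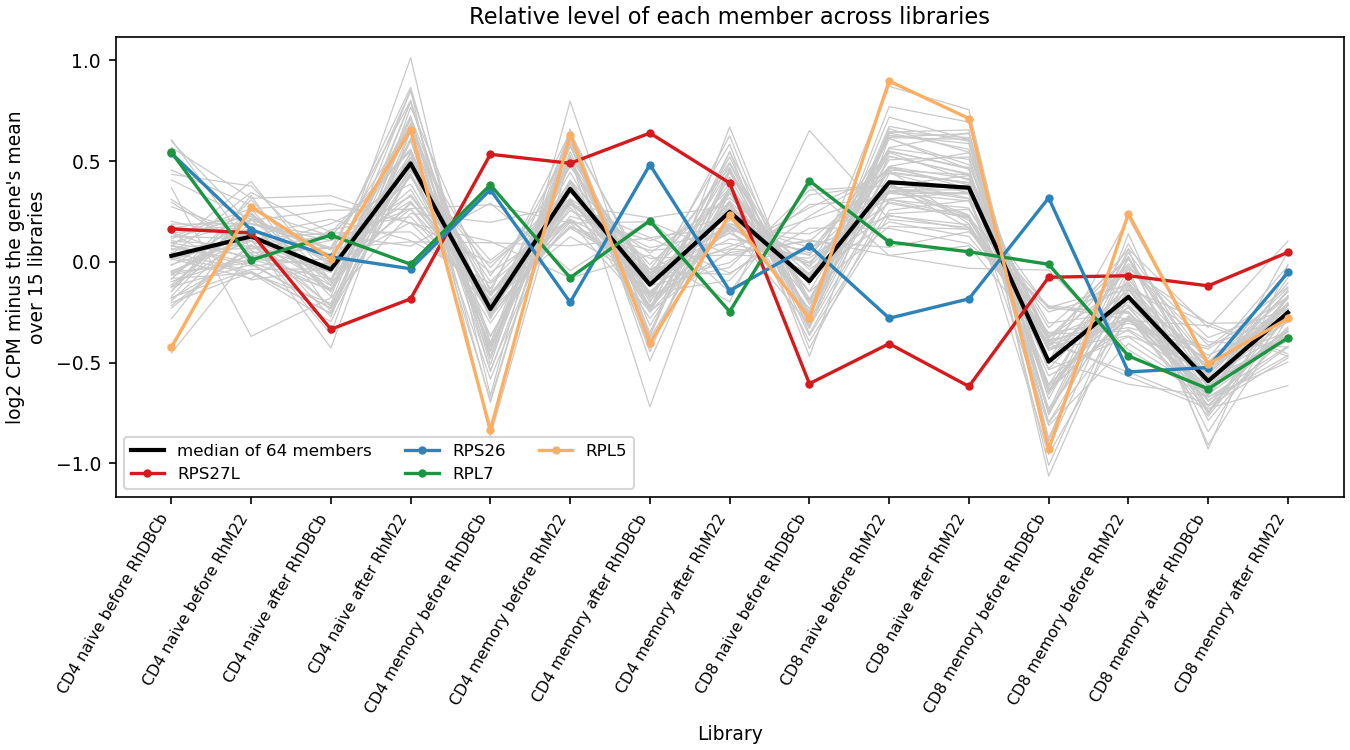
Level of each of the 64 members (grey lines) as log2 CPM minus the gene's own mean over the 15 libraries, with libraries along the horizontal axis in the order of subset, time and animal. The black line is the median of the members, and the coloured lines are RPS27L, RPS26 and RPL7, the 3 least like the rest, and RPL5. The median is below 0 in all 4 CD8 memory libraries, while RPS27L is highest in the CD4 memory libraries.

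Together the members took 1.89% to 3.56% of the counts of a library. CD8 memory cells had the lowest share, with 2.06% ± 0.175 (SD, n = 4), before CD4 memory cells with 2.71% ± 0.374 (SD, n = 4), CD4 naive cells with 3.02% ± 0.322 (SD, n = 4) and CD8 naive cells with 3.32% ± 0.361 (SD, n = 3). In RhDBCb the CD8 memory share was 1.89% before and 1.92% after treatment, and in RhM22 it was 2.20% and 2.22%. No other library was below 2.27%, so CD8 memory cells did not overlap with any other subset. The ranges of CD4 naive (2.78% to 3.49%), CD4 memory (2.27% to 3.11%) and CD8 naive cells (2.90% to 3.56%) overlapped, and these 3 neighbours in the order differed by about the SD of a subset or less. Both subunits followed this order, with the large-subunit members at 1.26% ± 0.0971 (SD, n = 4) in CD8 memory and 2.06% ± 0.188 (SD, n = 3) in CD8 naive cells, and the small-subunit members at 0.793% ± 0.0797 (SD, n = 4) and 1.25% ± 0.173 (SD, n = 3). The share of the 13 genes encoded in mitochondrial DNA moved in the same direction, with 0.676% to 0.982% in CD8 memory and 0.971% to 1.63% in CD8 naive libraries, and its part in the result was not tested.

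**Figure D2:**
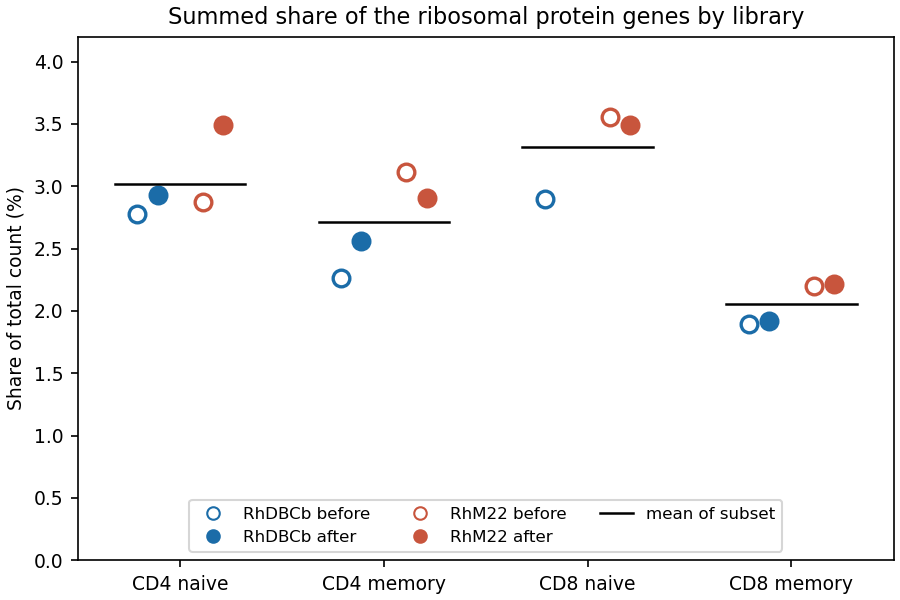
Summed share of the 64 members in the total count of each library, in percent, by subset. Colour gives the animal, open points are before and filled points after treatment, and the line is the mean of the subset; the 4 CD8 memory libraries lie between 1.89% and 2.22%, below every other library.

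CD8 memory cells had less RNA of most ribosomal proteins than CD8 naive cells. By edgeR's quasi-likelihood test at an adjusted p under 0.05, 49 of the 64 members were lower and 1, RPS27L, was higher, where 13.5% of all genes tested passed in either direction and 5.39% were lower. The median log2 fold change was -0.56 over the members, a level 32.2% lower, and 0.03 over all genes tested. Of the large subunit 28 of 37 members fell, and of the small subunit 21 of 27. In the 3 pairs of libraries of the same animal and time, CD8 memory was below CD8 naive for 61, 63 and 62 of the 64 members, and 61 members were lower in all 3 pairs, as were 23.4% of all genes tested. RPS27L, RPS26 and RPL26 were the exceptions. Every CD8 memory library was below every CD8 naive library for 33 members (9.6% of all genes tested) and above it for RPS27L (11.3%). For 13 members, among them RPL3, RPL10A, RPL22, RPL34, RPS2, RPS3 and RPS16, the 4 CD8 memory libraries were also below all the other 11 (1.21%).

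The call rested on few CD8 naive libraries. Leaving out 1 library kept at least 26 calls. The count was 26 without the CD8 naive library of RhDBCb, where 8.27% of all genes tested passed. It was 28 without the before (11%) or the after CD8 naive library of RhM22 (7.51%). Without the before CD8 memory library of RhM22 it was 32 (10.5%). Without the animal as a term in the fit 12 members passed, and in the before libraries only RPL10A did. Without the 4 before libraries of RhDBCb 48 passed, all lower, and RPS27L did not (edgeR adjusted p = 0.104). In RhM22 alone 51 members passed, and in RhDBCb alone, with 1 CD8 naive library, none did at a median of -0.47 (0.944% of genes called). The share of all genes tested that passed is not given beside the 12, 48 and 51 calls or that of RPL10A. Those counts therefore cannot be set against all genes tested. Markers of other cells differed between these 2 subsets. The summed level of the 4 B cell markers was 61.3 to 111 CPM in CD8 naive and 26.2 to 37.4 CPM in CD8 memory libraries. It came mainly from CD79A, whose highest CD8 naive value was 103 CPM, while MS4A1 was at most 1.71 CPM there. The 3 NK cell markers summed to 4.85 to 10.8 CPM in CD8 naive and 19.9 to 65.3 CPM in CD8 memory libraries, with KLRF1 at 19.1 to 61.9 CPM in the latter. The 2 proliferation markers MKI67 and TOP2A summed to 2.21 to 8.07 and 19.2 to 152 CPM. The 152 CPM belonged to the before CD8 memory library of RhDBCb, and the other CD8 memory libraries had 19.2 to 24.4 CPM. The part of these markers in the result was not tested.

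Among the large-subunit proteins, RPL10A fell most. It lay at 567 CPM in RhDBCb and 418 and 407 CPM in RhM22 in CD8 naive cells, the single value of RhDBCb being from before treatment, and at 276 and 218 CPM in RhDBCb and 243 and 236 CPM in RhM22 in CD8 memory cells, where paired values here and below are before and after treatment. The groups did not overlap, and the log2 fold change was -0.92 (SE 0.12, adjusted p = 0.000255) by edgeR. RPL22 lay at 157 CPM in RhDBCb and 178 and 171 CPM in RhM22 in CD8 naive cells and at 84.1 and 78.1 CPM in RhDBCb and 108 and 101 CPM in RhM22 in CD8 memory cells. Here too every CD8 memory library was lower, and the log2 fold change was -0.81 (SE 0.14, adjusted p = 0.00128) by edgeR. RPL32 lay at 327 CPM in RhDBCb and 464 and 436 CPM in RhM22 in CD8 naive cells and at 191 and 196 CPM in RhDBCb and 272 and 249 CPM in RhM22 in CD8 memory cells, a log2 fold change of -0.78 (edgeR, SE 0.13, adjusted p = 0.00136). RPL30, a small protein at the interface of the subunits, overlapped between the groups because the animals differed. Its CD8 naive value in RhDBCb, 52.5 CPM, was below the before CD8 memory value of RhM22, 58.1 CPM, and with the animal in the fit its log2 fold change was -0.79 (edgeR, adjusted p = 0.0179). RPL3 (-0.64), RPL13 (-0.68), RPL10 (-0.56) and RPL5 (-0.67) also passed on this scale. The stalk proteins, which draw elongation factors to the ribosome, differed in their calls. By edgeR the log2 fold change of RPLP2 was -0.58 (SE 0.16, adjusted p = 0.0264) and that of RPLP1 was -0.08 (SE 0.13, adjusted p = 0.756), and the difference between the 2 genes was not tested.

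Among the small-subunit proteins, RPS27A fell most. RPS27A is made as a fusion with ubiquitin, and the log2 fold change of its row was -0.77 (SE 0.18, adjusted p = 0.0122) by edgeR. A second row with the same name, described below, had more reads than this one, and reads could be split between them. RPS3, which sits at the channel where the messenger RNA enters, had a log2 fold change of -0.65 and RPS4X one of -0.63, and both passed. RPSA, which is also known as the laminin receptor, did not pass at -0.42 (SE 0.18, edgeR adjusted p = 0.136), nor did RPS29 at -0.50 (SE 0.18, edgeR adjusted p = 0.0753).

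RPS27L was the member that ran against the rest. It lay at 44.2 CPM in RhDBCb and 50.7 and 43.7 CPM in RhM22 in CD8 naive cells and at 63.7 and 61.8 CPM in RhDBCb and 64.0 and 69.4 CPM in RhM22 in CD8 memory cells. In CD4 naive cells it lay at 75.2 and 53.2 CPM in RhDBCb and 74.2 and 59.1 CPM in RhM22, and in CD4 memory cells at 97.2 and 105 CPM in RhDBCb and 94.2 and 88.1 CPM in RhM22. Memory libraries were above naive libraries in both lineages with no overlap, and the highest values were those of CD4 memory cells. The log2 fold change was 0.51 (SE 0.15, adjusted p = 0.0342) in CD8 and 0.56 (SE 0.14, adjusted p = 0.0184) in CD4 cells by edgeR. The CD8 call held in 9 and the CD4 call in 12 of the 15 fits that left out 1 library, with adjusted p up to 0.151 and 0.0694. Its relative RPS27 had log2 fold changes of -0.50 in CD8 and -0.17 in CD4 cells. RPS26, which lies at the exit channel of the messenger RNA, did not follow the block either: it lay at 290.0 CPM in RhDBCb and 226 and 242 CPM in RhM22 in CD8 naive and at 342 and 191 CPM in RhDBCb and 188 and 265 CPM in RhM22 in CD8 memory cells, with a log2 fold change of -0.08 (SE 0.20, edgeR adjusted p = 0.852).

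**Figure D3:**
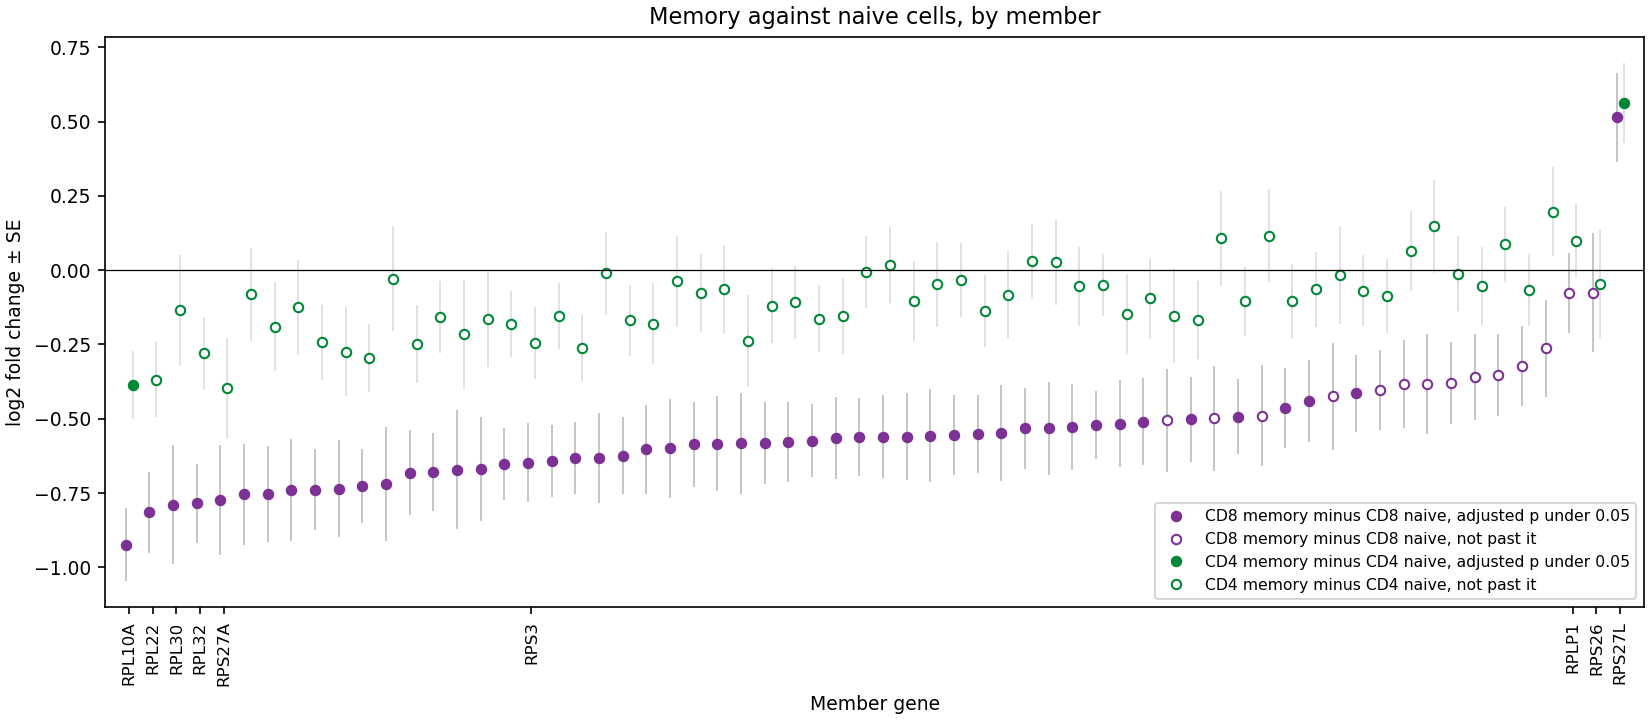
Log2 fold change of each member between memory and naive cells, with SE bars, for CD8 (purple) and CD4 cells (green), members ordered along the horizontal axis by the CD8 value. Filled points have an edgeR adjusted p under 0.05; 63 of the 64 CD8 values lie below 0 and RPS27L at the right end is above 0 in both.

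The same direction was seen against CD4 memory cells. In CD8 memory cells 27 members were lower than in CD4 memory cells and 0 were higher (edgeR, adjusted p under 0.05), where 6.35% of all genes tested passed and 2.59% were lower. All 64 log2 fold changes were below 0, with a median of -0.45 against 0.03 over all genes tested. Every CD8 memory library was below every CD4 memory library for 17 members (4.24% of all genes tested). RPS29 had the largest change: it lay at 118 and 121 CPM in RhDBCb and 204 and 202 CPM in RhM22 in CD4 memory cells and at 90.3 and 83.8 CPM in RhDBCb and 101 and 104 CPM in RhM22 in CD8 memory cells. Within each animal the CD8 values were lower, and the log2 fold change was -0.72 (SE 0.16, adjusted p = 0.0147) by edgeR. RPS16 lay at 811 and 765 CPM in RhDBCb and 762 and 682 CPM in RhM22 in CD4 memory cells and at 503 and 407 CPM in RhDBCb and 456 and 497 CPM in RhM22 in CD8 memory cells, without overlap, and its log2 fold change was -0.69 (SE 0.13, adjusted p = 0.00393) by edgeR. RPL30 (-0.70), RPS28 (-0.64), RPL34 (-0.64) and RPS13 (-0.62) completed the 6 largest changes on this scale.

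This count depended on single libraries and on the tool. DESeq2 called 47 members lower. Without the before library of RhM22 4 members passed when it was the CD4 memory library and 5 when it was the CD8 memory library. The count was 7 without the after CD4 memory library of RhM22, 9 without that of RhDBCb, 11 without the after CD8 memory library of RhDBCb and 14 without the before CD4 memory library of RhDBCb. It was 16 without the after CD8 memory library of RhM22 and 17 without the before CD8 naive library of RhM22. Over the fits that left out 1 library, 4.21% to 7.09% of all genes tested passed. Without the animal as a term RPS16 alone passed, and in the before libraries 0 did. Without the before libraries of RhDBCb 34 passed, all lower. Beside these 34, the 47 of DESeq2 and the count in RhM22 alone, the share of all genes tested that passed is not given. In RhM22 alone 12 members passed, and in RhDBCb alone 0 did at a median of -0.42. Markers of other cells differed here too: the 3 NK cell markers summed to 0.413 to 1.05 CPM in CD4 memory and 19.9 to 65.3 CPM in CD8 memory libraries, and the 4 B cell markers to 15.2 to 22.5 and 26.2 to 37.4 CPM. The groups did not overlap in either sum, and its part in the result was not tested.

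Within CD4 cells the family differed little on average between memory and naive cells, while single pairs differed in both directions. RPS27L was higher and RPL10A lower, and the other 62 members did not pass (edgeR, 8.38% of all genes tested). The median log2 fold change was -0.10 over the members and -0.03 over all genes tested, and the median SE of a member was 0.13. RPL10A lay at 535 and 453 CPM in RhDBCb and 449 and 412 CPM in RhM22 in CD4 naive and at 388 and 369.6 CPM in RhDBCb and 342 and 315 CPM in RhM22 in CD4 memory cells, without overlap. Its log2 fold change was -0.39 (SE 0.11, adjusted p = 0.0490) by edgeR, and it passed in 3 of the 15 fits that left out 1 library. The pairs did not share a direction. CD4 memory was below CD4 naive for 63 and 42 members in RhDBCb before and after treatment, and for 9 and 62 in RhM22. The members' median log2 difference was -0.30 and -0.07 in RhDBCb and 0.28 and -0.23 in RhM22. Without all 4 before libraries of RhDBCb only RPS27L passed. The count was 0 without the after library of RhDBCb, whether CD4 naive or CD4 memory, or without the after CD4 naive library of RhM22. It was 1, RPS27L, without the before CD4 naive, CD4 memory or CD8 naive library of RhDBCb, without the before CD4 memory, CD8 naive or CD8 memory library of RhM22, and without the after CD4 memory or CD8 naive library of RhM22.

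The log2 fold change of memory against naive cells was lower in CD8 than in CD4 cells for all 64 members by value, with a median difference of -0.46 on the log2 scale against 0.05 over all genes tested. Tested as an interaction, 0 members passed by edgeR after adjustment, 41 had an unadjusted p under 0.05, and DESeq2 called RPL10A and RPS2. Only 0.0405% of all genes tested passed this test. The smallest p was that of RPL10A, at -0.54 (SE 0.17, adjusted p = 0.458) by edgeR. RPL28 had -0.55 (SE 0.18, adjusted p = 0.504) and RPS28 -0.62 (SE 0.21, adjusted p = 0.520). Without the before libraries of RhDBCb edgeR called 0 members in this test and between the naive subsets. Between the naive subsets, CD8 minus CD4, 0 members passed by edgeR, 1 had an unadjusted p under 0.05 and DESeq2 called 1, RPS27L, where 2.79% of all genes tested passed by edgeR. The median was 0.02, with a median SE of 0.14, and RPS27L had -0.52 (SE 0.15, adjusted p = 0.0911), the smallest p, before RPS27 at -0.24 and RPS16 at -0.23.

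The other genes of the pathway did not all follow. Between CD8 memory and CD8 naive cells 13.5% of all genes tested passed, and 5.39% were lower. Of 19 tested translation factors and other TOP messages, 5 fell in CD8 memory against CD8 naive cells and 0 rose, with a median log2 fold change of -0.40. They were NAP1L1 (-0.73), the elongation factor EEF1G (-0.72), the ribosome-bound scaffold RACK1 (-0.62), EIF4B (-0.62) and HNRNPA1 (-0.52). All 19 values were below 0, with EEF1A1 at -0.49 (SE 0.16, adjusted p = 0.0594) by edgeR. Of 70 mitochondrial ribosomal proteins, 4 fell and 1 rose, with a median of -0.03. Of 42 tested genes of ribosome biogenesis, 0 fell and MYC rose (0.54, edgeR adjusted p = 0.0369), with a median of -0.14. MYC is a transcription factor that drives ribosome production. Of 17 genes of TOP and mTORC1 control, 2 rose, near the share of all genes tested, of which 1200 of 14814 were higher. They were EIF4EBP1 (1.89), which holds back cap-dependent translation, and DDIT4 (0.82), which restrains mTORC1. Of the ribosomal relatives outside the rule, 6 were tested. RPL22L1, the paralog of RPL22, fell, and edgeR gave it -0.82 (SE 0.24, adjusted p = 0.0373). FAU, whose product is a ribosomal protein fused to a protein like ubiquitin, did not pass at -0.06.

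No ribosomal protein gene was called for treatment with cyclodextrin in any of the tests over both animals, and small changes could not be detected by them. Over all subsets, 0 of the 64 members passed by edgeR and by DESeq2, 0 had an unadjusted p under 0.05, and 0.00675% of all genes tested passed. The log2 fold changes after against before ran from -0.19 to 0.15 with a median of 0.01 and a median SE of 0.10. The members with the smallest p were RPL6 at -0.19 (SE 0.10, adjusted p = 0.535), RPL10A at -0.16 (SE 0.08, adjusted p = 0.539) and RPL7 at -0.18 (SE 0.10, adjusted p = 0.550), all by edgeR. Within a subset, 0 members passed in each of the 4 by edgeR and by DESeq2, 0 had an unadjusted p under 0.05, and 0% of all genes tested passed. The median log2 fold change of the members was 0.14 in CD4 naive, -0.02 in CD4 memory, 0.00 in CD8 naive and -0.09 in CD8 memory cells. With 1 library left out, the CD4 naive median ranged from -0.06, without the before library of RhM22, to 0.36, without that of RhDBCb. The CD4 memory median ranged from -0.13, without the before library of RhDBCb, to 0.15, without that of RhM22, and was 0.01 without the after library of RhM22. The median SE of a member was 0.22 in each subset but CD8 naive, where it was 0.27. Larger values than these did not pass either, such as RPLP2 in CD4 naive cells at 0.44 (SE 0.23, adjusted p = 0.897) by edgeR. The differences between these effects, tested for CD4 naive against CD8 memory, CD4 naive against CD4 memory and CD4 memory against CD8 memory, passed for 0 members each by edgeR, with 0 unadjusted p under 0.05 and 0% of all genes tested.

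The 7 pairs of before and after libraries moved in different directions. In RhDBCb the family's share of counts went from 2.78% to 2.93% in CD4 naive, from 2.27% to 2.56% in CD4 memory and from 1.89% to 1.92% in CD8 memory cells. In RhM22 it went from 2.87% to 3.49% in CD4 naive, from 3.11% to 2.90% in CD4 memory, from 3.56% to 3.49% in CD8 naive and from 2.20% to 2.22% in CD8 memory cells. By scaled CPM, the CD4 naive pair of RhM22 moved most, with 56 of 64 members higher after treatment and a median log2 difference of 0.39. The same subset of RhDBCb had 25 higher and 39 lower, with a median of -0.09. In CD4 memory cells 55 members were higher after treatment in RhDBCb (median 0.10) and 61 were lower in RhM22 (median -0.13). The medians of the remaining pairs lay between -0.10 and -0.05. With counts scaled to the library's total alone the median was 0.08 in CD4 naive and 0.07 in CD8 memory cells of RhDBCb, above 0 where the scaled values were below it, and the other 5 pairs kept their sign. RPL32 in CD4 naive cells differed between the animals by scaled CPM: RhDBCb had 349.5 CPM before and 346 CPM after treatment, and RhM22 had 361 and 466 CPM. By the library's total alone RhDBCb had 338 CPM before and 374 CPM after treatment, so its direction depended on the scaling. The CD4 naive library of RhM22 after treatment also had the highest share of counts from mitochondrial DNA, 2.19%, and the highest summed level of the 5 platelet markers, 94.3 CPM. The CD4 naive library of RhM22 before treatment had the lowest total count of that animal, 49515386. Against it, the members' median log2 difference was 0.32 in CD8 naive and 0.28 in CD4 memory cells of RhM22. After treatment these differences were -0.10 and -0.23. The part of either library in the change of this pair was not tested.

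**Figure D4:**
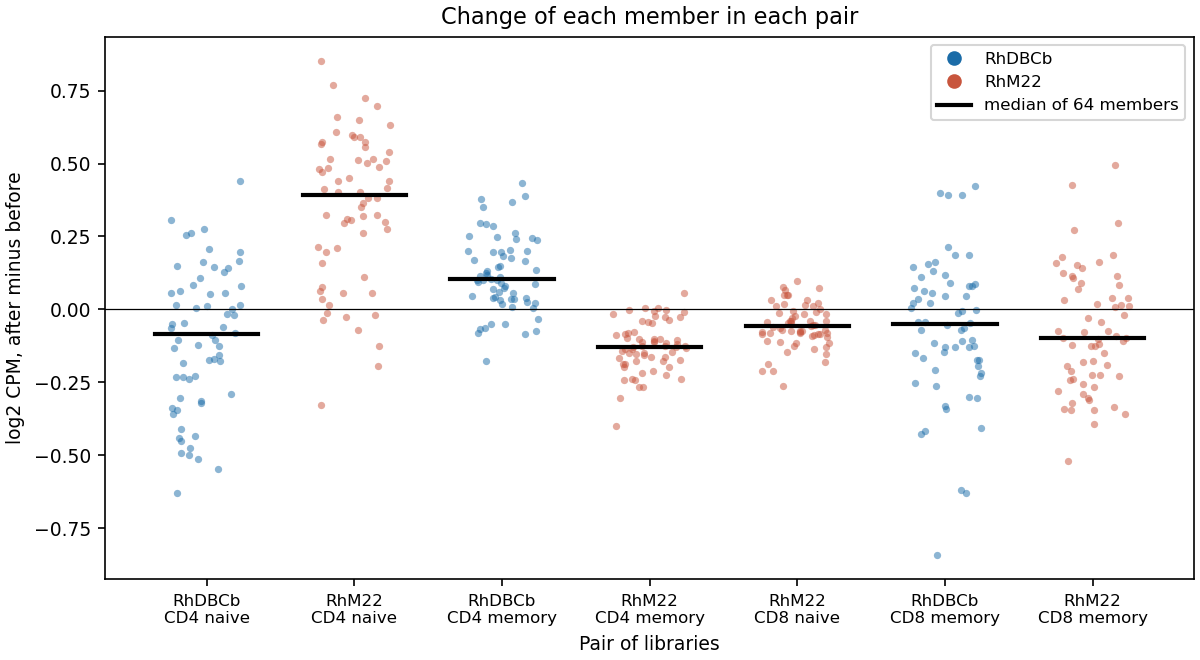
Log2 CPM after minus before treatment for each of the 64 members in each of the 7 pairs of libraries, with blue for RhDBCb, red for RhM22 and a black line at the median of the members. The median is 0.39 in CD4 naive cells of RhM22 and lies between -0.13 and 0.10 in the other 6 pairs.

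Taken animal by animal, edgeR again called no member, while it called other genes. The pairs of an animal share its sampling before and its sampling after treatment. Within an animal, treatment and a difference between these samplings therefore cannot be told apart. In RhDBCb 0 members passed by edgeR, 5 had an unadjusted p under 0.05 and DESeq2 called RPL6 and RPL7, where 10.1% of all genes tested passed by edgeR. RPL5, which binds the 5S ribosomal RNA with RPL11 and can hold the p53 regulator MDM2, was higher after treatment in the 3 pairs of RhDBCb. It went from 493 to 669 CPM in CD4 naive, from 371 to 501 CPM in CD4 memory and from 347 to 465 CPM in CD8 memory cells. The log2 fold change in RhDBCb was 0.44 (SE 0.15, adjusted p = 0.0893) by edgeR. RPL6 and RPL7, both RNA-binding proteins of the large subunit, were lower after treatment in the same 3 pairs, and edgeR gave -0.38 (SE 0.13, adjusted p = 0.0740) for RPL6 and -0.37 (SE 0.13, adjusted p = 0.0834) for RPL7. RPL7 went from 1591 to 1196 CPM in CD4 naive, from 1422 to 1257 CPM in CD4 memory and from 1082 to 705 CPM in CD8 memory cells. The before libraries of these 3 pairs are among those that stood apart in early response genes, and the part of this was not tested. Without the after CD4 memory library of RhDBCb 3 members passed, RPL6, RPL7 and RPS26, and without the before CD4 naive library of RhM22 RPL5 did. In RhM22 0 members passed by edgeR and by DESeq2 and 0 had an unadjusted p under 0.05 (0.0608% of all genes tested passed by edgeR).

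The difference of these effects, RhM22 minus RhDBCb, also had 0 calls by edgeR and by DESeq2, with 1 unadjusted p under 0.05, where 4.58% of all genes tested passed by edgeR. It was RPL5, at -0.63 (SE 0.21, adjusted p = 0.103) by edgeR, which passed without the before CD4 naive library of RhM22, as RPS26 did without the after CD4 memory library of RhDBCb. Genes that build ribosomes were called in RhDBCb, where 10 of 42 rose and 4 fell after treatment, with a median of 0.18, beside 10.1% of all genes tested that passed in RhDBCb in either direction. Those that rose most were NOLC1 (1.51), GNL3 (1.32) and NOP56 (0.91), proteins of the nucleolus, and SBDS, which helps release the factor EIF6 from the large subunit, fell (-1.06). In the difference between the animals 9 of the 42 were lower in RhM22 and 1 was higher, with GNL3 at -2.11 (SE 0.16, adjusted p = 9.33e-05) by edgeR. The before libraries of RhDBCb, on which these values rest, are those that stood apart in early response genes, and the part of this was not tested. These values also do not separate treatment from a difference between the samplings of an animal.

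More members were called between the animals than between the time points. Over all subsets and times 44 of the 64 members were higher in RhM22 than in RhDBCb and 1, RPL7, was lower (edgeR), where 35.8% of all genes tested passed and 18.6% were higher in RhM22. The median log2 fold change was 0.41 over the members, a level 32.6% higher, and 0.06 over all genes tested. The share of counts was 2.46% ± 0.444 (SD, n = 7) in RhDBCb and 2.98% ± 0.546 (SD, n = 8) in RhM22, libraries that differ in subset. In the 7 subset and time groups with both animals, the members' median difference was 0.09 in CD4 naive cells before treatment and 0.32 to 0.60 in the other 6, and 40 to 61 members were higher in RhM22. For RPLP1, RPS12 and RPS4X every library of RhM22 was above every library of RhDBCb (2.25% of all genes tested). For RPLP1 and RPS12 the animals barely separated. The lowest value of RhM22 and the highest of RhDBCb were 120.26 and 120.235 CPM for RPLP1, and 140.927 and 140.874 CPM for RPS12. Without the before libraries of RhDBCb 24 members passed, all higher in RhM22, at a median of 0.40. For that fit the share of all genes tested that passed is not given. With 1 animal on each side, the difference is between these 2 animals and their samples.

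RPS4X is encoded on the X chromosome and has a partner on the Y chromosome, RPS4Y1, which the rule leaves out. It had a lowest value of 229.7, a median of 336 and a highest of 395 CPM in the 7 libraries of RhDBCb and a lowest value of 433, a median of 584 and a highest of 719 CPM in the 8 of RhM22. The animals did not overlap, and the log2 fold change was 0.82 (SE 0.09, adjusted p = 3.38e-05) by edgeR. RPS4Y1 lay at 199.7 to 273 CPM in RhDBCb and at most 0.457 CPM in RhM22. The sum of both rows had a median of 572 CPM in RhDBCb (429 to 641) and of 585 CPM in RhM22 (433 to 719), so that the animals overlapped in the sum. The 2 genes are alike in sequence, and how the authors' counting split their reads could shift each value.

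RPL5 had a lowest value of 347, a median of 493 and a highest of 669 CPM in RhDBCb and a lowest value of 545, a median of 912 and a highest of 1232 CPM in RhM22. The animals overlapped, and the log2 fold change was 0.86 (SE 0.14, adjusted p = 0.000500) by edgeR. RPL30 (0.87), RPL9 (0.83), RPS25 (0.78) and RPS27A (0.91) completed the 6 largest increases, and RPSA had 0.75. RPL7 had a lowest value of 705, a median of 1257 and a highest of 1591 CPM in RhDBCb and a lowest value of 789, a median of 1058 and a highest of 1168 CPM in RhM22. Its range in RhM22 lay within that of RhDBCb, and its log2 fold change of -0.29 (SE 0.10, adjusted p = 0.0356) by edgeR passed in 5 of the 15 fits that left out 1 library. Below 0, without passing, were also RPS26 (-0.33), RPL6 (-0.25), RPL10A (-0.19), RPS16 (-0.05) and RPS9 (-0.01). RPL10A, the member with the largest CD8 difference between memory and naive cells, did not pass here.

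The translation factors and other TOP messages went with the members between the animals: 15 of 19 were higher in RhM22 and 0 lower, with a median of 0.49 and the elongation factor EEF2 at 0.86 (SE 0.10, adjusted p = 4.53e-05) by edgeR. The mitochondrial ribosomal proteins went the other way, with 36 of 70 lower and 2 higher and a median of -0.36. Of all 14814 genes tested 2549 were lower in RhM22. The lowest were MRPL28 (-1.22), MRPS18A (-0.98) and MRPL14 (-0.89). In ribosome biogenesis 10 of 42 were higher and 6 lower, near the 18.6% of all genes tested that were higher and the 35.8% that passed. In TOP and mTORC1 control 7 of 17 were higher, led by TSC1 (1.32), a part of the complex that inhibits mTORC1, and 2 were lower, EIF4EBP1 (-1.47) and LARP4 (-0.66). Other measures also differed between the animals. The share of mitochondrially encoded RNA was 0.528% to 1.09% in RhDBCb and 0.690% to 2.19% in RhM22. The 5 platelet markers summed to 1.97 to 24.4 CPM in RhDBCb and 21.3 to 94.3 CPM in RhM22, with the platelet chemokine PPBP at most 68.9 CPM, and the part of these in the result was not tested.

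**Figure D5:**
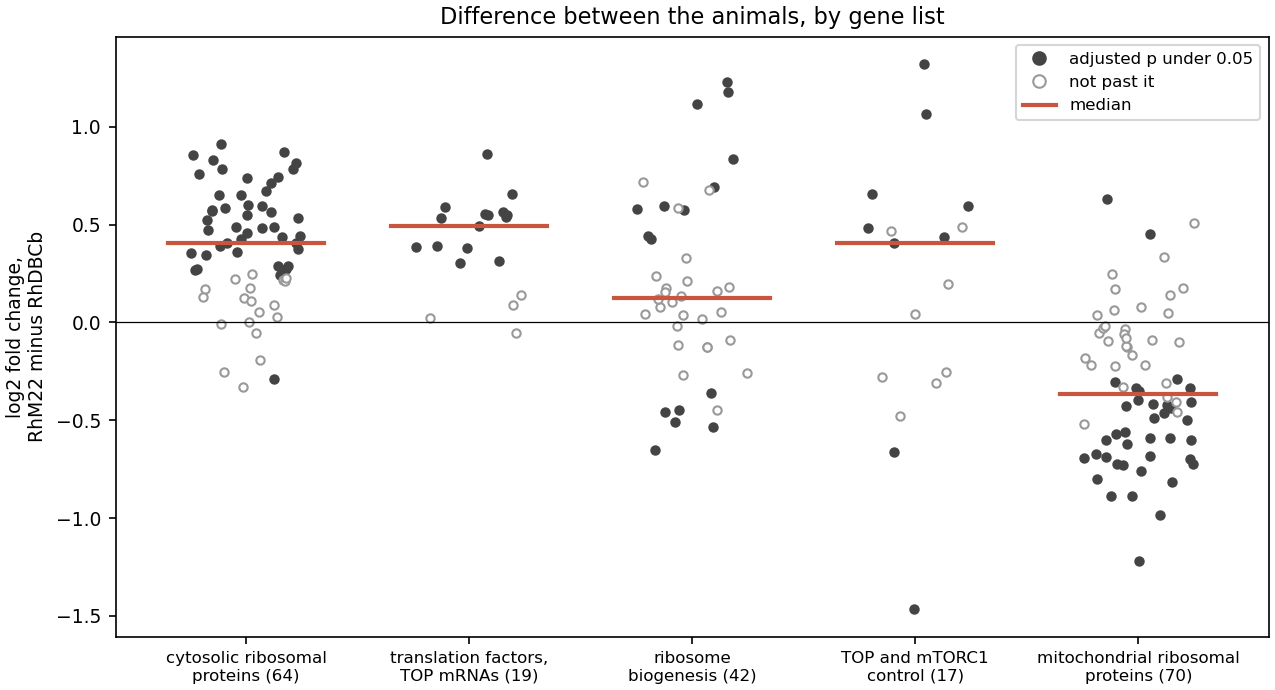
Log2 fold change between the animals, RhM22 minus RhDBCb, for each tested gene of 5 lists, with the number of genes in brackets and a red line at the median of a list. Filled points have an edgeR adjusted p under 0.05; the medians are 0.41 for the cytosolic ribosomal proteins, 0.49 for translation factors and -0.36 for mitochondrial ribosomal proteins.

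The 10 rows that carry a ribosomal protein name only through the gene-name table included RPS3A, RPS15A, RPS19, RPL14, RPL37, RPL41 and second rows for RPS2, RPS24 and RPS27A. In CD8 memory against CD8 naive cells 7 of them fell and 0 rose by edgeR, with a median log2 fold change of -0.56. Of all genes tested 5.39% were lower in that comparison. The second row of RPS27A lay at 275 to 960 CPM, far above the 16.8 to 57.1 CPM of the member row, and its log2 fold change was -0.79, close to the -0.77 of the member row. Between the animals 6 rows were higher in RhM22 and 1 was lower, where 18.6% of all genes tested were higher and 35.8% passed in either direction. RPL41, which encodes the shortest ribosomal protein, lay at 8.09 to 39.6 CPM in RhDBCb and 103 to 202 CPM in RhM22, a log2 fold change of 3.01 (edgeR, SE 0.31, adjusted p = 1.92e-05). The second row of RPS2 lay at 369.7 to 639 CPM in RhDBCb and 79.9 to 129.7 CPM in RhM22, a log2 fold change of -2.36 (edgeR, SE 0.10, adjusted p = 3.53e-10), while the member row of RPS2 had 0.24. These 2 rows did not overlap between the animals. Among others, RPS2, RPS24, RPS27A and RPSA each had a second row of the same name, so that their reads may be split between copies and their values are uncertain.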

How the data were processed

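The authors estimated an expected count per gene and deposited it unscaled, and also deposited FPKM values, in which these counts are divided by a gene length and a library scale. The submitters' processing notes name RSEM 1.3.3, STAR 2.7.6a and cutadapt 1.18 and the builds rheMac10 and Mmul_10; how the gene length for FPKM was chosen is not given in the sources used here. Expected counts were rounded, which shifted totals by no more than 26.1 counts, and scaled with TMM factors. Genes passed edgeR's filterByExpr by subset and time (minimum count 10, which a group of 1 library makes lenient). Each contrast used the quasi-likelihood F test of edgeR 4.0.16 (R 4.3.3) in all 15 libraries, which shared 1 estimate of the spread. Models held subset, time and animal, or 8 subset-by-time groups and animal, or the animal-by-time term. Benjamini-Hochberg adjustment ran over 14814 genes, with the threshold at 0.05. The SE is the absolute log2 fold change divided by the square root of F. The code was tested on simulated data. Counting error aside, PCR copies are not independent molecules.

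The animal name in the labels pairs the samples. Across the tested genes, deviations from the group means correlated between before and after libraries at 0.41, 0.64 and 0.32 for CD4 naive, CD4 memory and CD8 memory. Members and gene lists were chosen with earlier results of these data known. Named were, per comparison, up to 6 called members per direction by fold change or else the 3 with the smallest p, members at the extremes of level, spread and likeness, a fixed panel, and up to 3 genes per direction and list. Members named where a count of 5 or fewer arose, members listed as exceptions, below 0 between the animals or as not overlapping, and list genes given beside them as not passing were chosen after their values were seen. Alternatives were DESeq2 1.42.0, its size factors, TMM without the members, no filter, no animal block, before libraries only, FPKM in place of CPM for levels, and leaving out each library. A filter of at least 1 CPM in 3 libraries, each animal alone, leaving out the before libraries of RhDBCb, CPM from the library total alone for the pairs of before and after libraries, and differences in treatment effect between subsets were added after the data were seen. Some genes that the rule names are not reported here. No sequences were used.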

Additional observations from a re-analysis of the deposited data

Results flagged for a closer look

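Among 123 groups of 4 libraries tested over 41 measures, 5 held 1 library whose gap to the next made up nearly the whole range of its group. Chance flags about 1 in 20 groups, so a number of this size carries little weight. In CD4 naive cells, the library of RhM22 after treatment stood apart with 2.19% of counts from mitochondrial DNA and with RPL32 at 466 CPM. In the same subset, the before library of RhDBCb had RPL6 at 505 CPM. In CD4 memory cells, the before library of RhDBCb was low in RPL36 at 59.7 CPM and that of RhM22 high in RPL4 at 763 CPM. What set these libraries apart was not tested.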

How the results depend on the processing

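The summed share of the members in CD8 memory cells was 0.75 times the mean share by counts and 0.79 times by FPKM. For CD8 memory against CD8 naive cells, 50 members passed. The count was 12 with no replicate block, that is without the animal in the pairing of libraries, 1 (RPL10A) in the before libraries only and 0 in RhDBCb alone. It was 26 to 50 with 1 library left out. Against CD4 memory cells 27 passed, 47 with DESeq2, 15 with no low count filter, 1 (RPS16) with no replicate block, 0 in the before libraries only, 12 in RhM22 alone and 0 in RhDBCb alone, and 4 to 34 with 1 library left out. In CD4 cells 2 passed. The count was 1 with DESeq2 size factors, with TMM without the members, with no low count filter and without the before libraries of RhDBCb, and 0 with no replicate block, in the before libraries only and in either animal alone. It was 0 to 2 with 1 library left out. DESeq2 called 1 member in place of 0 between the naive subsets, and 2 in place of 0 both for the difference of the memory effect and for treatment in RhDBCb. Between the animals 45 passed, 24 without the before libraries of RhDBCb and 38 to 47 with 1 library left out. Treatment in RhDBCb gave 0 to 3, the difference of treatment between the animals 0 to 1, and treatment over all subsets, in each subset and in RhM22 0, with 1 library left out; treatment in CD8 naive cells had 14 such fits, since its after library cannot be left out. Beside the counts in this section the share of all genes tested that passed is not given. A lone library left in a group was taken to vary like the others. The cause of these changes was not tested, beyond the fewer libraries in fits to some of them. The members named by a comparison kept their direction in every fit of that comparison. Of their values outside the fits with 1 library left out, 335 kept their side of the threshold, 54 lost and 4 gained a call. A value without an adjusted p would count as kept by its direction alone. Members named for level, spread, likeness or the panel alone were not followed in this way. The replicate block changed calls as given here. With 2 animals and 1 library per group, small changes of a member cannot be detected.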
